A study of Mus musculus with 12 samples.

Results

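The autophagy machinery and the TFEB family of its transcriptional regulators were followed in the cerebellum (Cb) and in the combined forebrain and midbrain (F/M) of mice that lack tripeptidyl peptidase 1, the lysosomal protease encoded by Tpp1. The set held 40 genes, chosen by symbol, and all 40 were found among the 52459 genes of the count tables. Each area was represented by 3 libraries from wild-type controls (N) and 3 from Tpp1-/- mice (T), which gave the 4 groups Cb-N, Cb-T, F/M-N and F/M-T. All mice were males of 4 months, bred from heterozygous parents, with wild-type siblings as controls. Tpp1 was disrupted by gene targeting in the germline, so every cell of a T mouse carried the disruption and the comparison cannot separate cell types. The labels name no treatment.

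In macroautophagy a cup-shaped membrane grows around cytoplasmic cargo, closes into an autophagosome and fuses with a lysosome, where the cargo is broken down. The ULK1 complex starts the process, a class III PI3-kinase complex marks the membrane, ATG9 and ATG2 proteins supply lipid, and a conjugation system attaches ATG8 proteins (the LC3 and GABARAP families) to the membrane, where they bind cargo receptors such as SQSTM1. mTORC1 restrains ULK1 and keeps TFEB, TFE3 and MITF in the cytoplasm, and when released these factors bind E-box-like sites in front of lysosomal and autophagy genes. Neurons depend on autophagy for turnover of proteins and organelles, and the neuronal ceroid lipofuscinoses, of which TPP1 deficiency is one, are lysosomal storage disorders.

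The 12 libraries held 21428379 to 24458189 counts each, so that 3 counts corresponded to 0.121 to 0.139 CPM (the count scaled to a common library size with TMM factors), a floor that covers counting error only. Member counts per library ran from 15 for Atg9b in Cb-N to 13821 for Gabarapl1 in F/M-T. The check of the labels held in every library: Tpp1 stood at 112, 114 and 112 CPM in Cb-N against 28.0, 31.1 and 30.1 CPM in Cb-T, and at 94.4, 88.7 and 87.8 CPM in F/M-N against 23.9, 21.8 and 23.3 CPM in F/M-T. The labels do not say which mouse each library came from, so p-values measure only the spread between these samples. The Cb-T libraries stood apart in makeup: the summed level of 13 hindbrain Hox genes was 0.325 to 0.551 CPM in Cb-N, where 6 of them were at 0 in all 3 libraries, and 13.7 to 14.6 CPM in Cb-T. The sum of 12 cerebellar neuron markers was 8360 to 8470 CPM in Cb-N against 7200 to 7270 CPM in Cb-T. Sums of 18 microglial markers were 214 to 226 CPM in Cb-N against 805 to 817 CPM in Cb-T, and 599 to 617 CPM in F/M-N against 959 to 983 CPM in F/M-T, with none of the 18 at 0 in any group. Astrocyte markers summed to 7280 to 7320 CPM in Cb-N against 9280 to 9300 CPM in Cb-T, and oligodendrocyte markers to 4930 to 5040 CPM against 6410 to 6480 CPM. In F/M the astrocyte sum was 6400 to 6670 CPM in N and 7290 to 7650 CPM in T (10 of 12 markers higher), the oligodendrocyte sum was 6400 to 6570 and 6340 to 6500 CPM, and that of 12 neuron markers was 10200 and 9560 to 9670 CPM (4 lower). The neuron sum in Cb was 7290 to 7340 CPM in N and 6740 to 6880 CPM in T (4 higher, 5 lower). All 3 Cb-T libraries carried the Hox signal, so no comparison of Cb without them could be made. In F/M the sum of 7 olfactory bulb markers was 42.3 to 43.6 CPM in N and 15 to 16.4 CPM in T (7 lower), and that of the Hox genes was at most 0.0847 CPM in any library. In Cb the olfactory sum was 55.1 to 58 CPM in N and 15.4 to 17.3 CPM in T, with 3 of the 7 markers tested, 1 higher and 1 lower. The sum of 7 serotonin neuron markers was 6.22 to 6.48 against 12.1 to 15.3 CPM in Cb (5 tested, 4 higher, 1 lower) and 29.6 to 31.9 against 43.5 to 46.7 CPM in F/M (6 tested, 2 higher). The sum of 12 forebrain markers was 792 to 833 CPM in F/M-N against 749 to 760 CPM in F/M-T (8 lower, 1 higher), and 165 to 176 against 168 CPM in Cb, where 8 were tested, 4 higher and 2 lower, with a median log2 fold change of 0.95. That of 12 endothelial markers was 408 to 418 against 444 to 452 CPM in Cb (7 higher), and 367 to 373 against 367 to 380 CPM in F/M (3 higher, 1 lower). The part of these differences in the results given here was not tested, and in such bulk tissue fewer cells of a type and less RNA per cell cannot be told apart.

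The promoters of a few members are shown first, since the TFEB family binds a known sequence that can be looked for in them. Promoter sequence came from RefSeq (GRCm38.p6) for 34 of the 40 members, and 300 bases around each start (250 before, 50 after) were searched on both strands for the E-box CACGTG, for TCACGTGA and for the latter with G before and C after it, each of which contains the one before and reads the same on both strands. The capitals mark CACGTG. The first set holds 3 members that rose in both areas, Sqstm1 (chr11:50210828-50211070 on the minus strand), Gabarapl1 (chr6:129532942-129533159 on the plus strand) and Optn (chr2:5064118-5064367 on the minus strand), and the member with the largest fold change, Atg9b (chr5:24392144-24392393 on the minus strand). Beside them stand 2 that fell, Atg16l2 (chr7:101302252-101302338 on the minus strand), with the largest decrease in Cb, and Atg4d (chr9:21265035-21265284 on the plus strand), lower in both areas. The bases shown lie before the RefSeq start and outside the GENCODE gene model.
Sqstm1: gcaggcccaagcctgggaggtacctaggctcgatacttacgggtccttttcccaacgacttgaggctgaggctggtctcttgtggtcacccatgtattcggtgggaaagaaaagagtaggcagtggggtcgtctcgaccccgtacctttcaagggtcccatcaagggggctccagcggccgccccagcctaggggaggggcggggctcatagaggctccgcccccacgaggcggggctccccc
Gabarapl1: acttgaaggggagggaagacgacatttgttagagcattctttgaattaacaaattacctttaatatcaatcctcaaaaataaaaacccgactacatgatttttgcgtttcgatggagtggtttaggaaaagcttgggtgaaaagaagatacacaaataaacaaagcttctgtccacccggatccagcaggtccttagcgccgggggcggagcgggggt
Optn: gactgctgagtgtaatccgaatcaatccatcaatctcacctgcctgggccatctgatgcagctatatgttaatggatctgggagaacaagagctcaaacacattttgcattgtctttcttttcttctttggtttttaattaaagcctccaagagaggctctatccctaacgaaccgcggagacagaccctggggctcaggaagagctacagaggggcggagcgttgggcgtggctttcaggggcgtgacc
Atg9b: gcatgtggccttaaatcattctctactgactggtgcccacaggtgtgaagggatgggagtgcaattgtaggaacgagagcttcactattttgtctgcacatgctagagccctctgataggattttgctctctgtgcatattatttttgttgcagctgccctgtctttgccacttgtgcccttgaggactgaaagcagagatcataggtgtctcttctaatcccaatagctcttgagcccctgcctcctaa
Atg16l2: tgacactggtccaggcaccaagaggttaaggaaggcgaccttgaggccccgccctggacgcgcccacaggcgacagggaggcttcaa
Atg4d: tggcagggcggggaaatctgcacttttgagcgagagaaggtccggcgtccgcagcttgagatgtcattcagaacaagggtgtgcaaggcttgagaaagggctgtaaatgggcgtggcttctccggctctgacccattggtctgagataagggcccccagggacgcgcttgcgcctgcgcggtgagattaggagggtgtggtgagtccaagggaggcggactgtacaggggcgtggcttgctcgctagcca

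For contrast, Atg3 (chr16:45158579-45158784 on the plus strand) was the only member with TCACGTGA, and Lamp1 (chr8:13158911-13159160 on the plus strand) is a lysosomal membrane gene of the CLEAR network, the group of lysosomal genes known as TFEB targets.
Atg3: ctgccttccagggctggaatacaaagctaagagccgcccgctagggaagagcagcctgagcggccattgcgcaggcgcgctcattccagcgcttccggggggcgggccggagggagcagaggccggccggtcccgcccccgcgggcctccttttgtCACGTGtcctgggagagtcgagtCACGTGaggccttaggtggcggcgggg
Lamp1: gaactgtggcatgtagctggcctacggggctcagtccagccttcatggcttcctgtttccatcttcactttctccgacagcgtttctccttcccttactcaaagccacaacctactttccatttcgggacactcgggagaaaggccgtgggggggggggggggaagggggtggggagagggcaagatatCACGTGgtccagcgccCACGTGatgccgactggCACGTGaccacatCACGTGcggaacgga

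None of the windows of Sqstm1, Gabarapl1, Optn, Atg9b, Atg16l2 and Atg4d held CACGTG, which says only that these letters are not in those windows. The window of Atg3 held it 94 and 71 bases before the start, and that of Lamp1 held it 61, 45, 28 and 15 bases before the start. CACGTG was present for 4 of 34 members (11.8%), Atg14, Atg3, Atg5 and Atg7, and for 8.09% of the 27025 genes with a window. Among 30 CLEAR genes, 22 had a window and 14 of them (63.6%) held CACGTG. TCACGTGA was present for 1 of 34 members and 8 of 22 CLEAR genes (36.4%), against 1.12% of all genes, and the longest form for none of either list, against 0.37% of all genes. CLEAR genes were themselves defined in part by this motif, and a match is a description of the letters, not a bound site.

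In Cb, 10 members rose and 13 fell in T against N, and in F/M 7 rose and 7 fell (edgeR's quasi-likelihood test, FDR below 0.1). Of all tested genes, 57.6% passed this limit in Cb (29.8% higher, 27.9% lower) and 27.2% in F/M (12.8% higher, 14.4% lower). The 23 of 40 members that passed in Cb (57.5%) were therefore at the background share, and the 14 in F/M (35%) were above it, a difference that was not tested. The 7 members that fell in F/M became 14 in one fit of all 12 libraries, 3 without replicate 1 of F/M-N and 4 without replicate 3 of F/M-T. The median log2 fold change of the members was -0.027 in Cb and -0.012 in F/M, beside 0.012 and 0.0078 for all tested genes, and their median absolute change of 0.13 in Cb and 0.083 in F/M was smaller than the 0.18 and 0.11 of all genes. All 40 passed the filter on low counts in both areas. Only 2 members reached the limits of a DEG (FDR below 0.1 and at least 1.5-fold) in Cb, Atg9b and Sqstm1, and both were higher in T. Sqstm1, at a log2 fold change of 0.59, lay just past 1.5-fold and missed it with RLE size factors and with DESeq2 (0.58) and in one fit of all 12 libraries (0.57). Atg16l2, lower in T at -0.57, lay just short of it, and passed it in that fit and without replicate 2 of Cb-N or of Cb-T, and without replicate 3 of Cb-N (-0.60), where 3 members were DEG. Of all genes 11.2% were DEG in Cb (8.54% higher, 2.66% lower). In F/M no member was a DEG by edgeR, DESeq2 or limma-voom, against 3.49% of genes (2.63% higher, 0.858% lower). At an unadjusted p below 0.05, 16 members passed there, against 32.8% of all genes, and none of them reached 1.5-fold. The libraries of N and T did not overlap for 21 of 40 members in Cb (57.1% of all genes) and for 21 in F/M (37% of all genes). This was read from CPM, whose TMM factors were set over all 12 libraries, while the tests used factors of each area alone.

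By role, 5 members rose in both areas: the cargo receptors Sqstm1 and Optn, the ATG8 proteins Gabarap and Gabarapl1, and Atg10 of the conjugation system. A further 7 fell in both: Ulk1 and Rb1cc1 of the initiation complex, Atg9a, Atg2a and Atg2b of the membrane supply, the protease Atg4d, and Mtor. Atg9b, Atg7, Atg5, Map1lc3a and Map1lc3b passed as higher in Cb alone, and Atg13, Atg16l1, Atg16l2, Atg4a, Tfeb and Rptor as lower in Cb alone. Uvrag and Nbr1 passed as higher in F/M alone, 15 members passed in neither area, and none passed in opposite directions. Of the 15706 genes tested in both areas, 9.42% rose in both, 9.77% fell in both and 2.66% passed in opposite directions. Passing in 1 area alone does not show that the areas differed, which was tested separately and is given further on. An absolute log2 fold change of at least 0.3 with FDR below 0.1 was found for 8 members in Cb and 2 in F/M, against 25.1% and 8.08% of all genes.

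**Figure D1:**
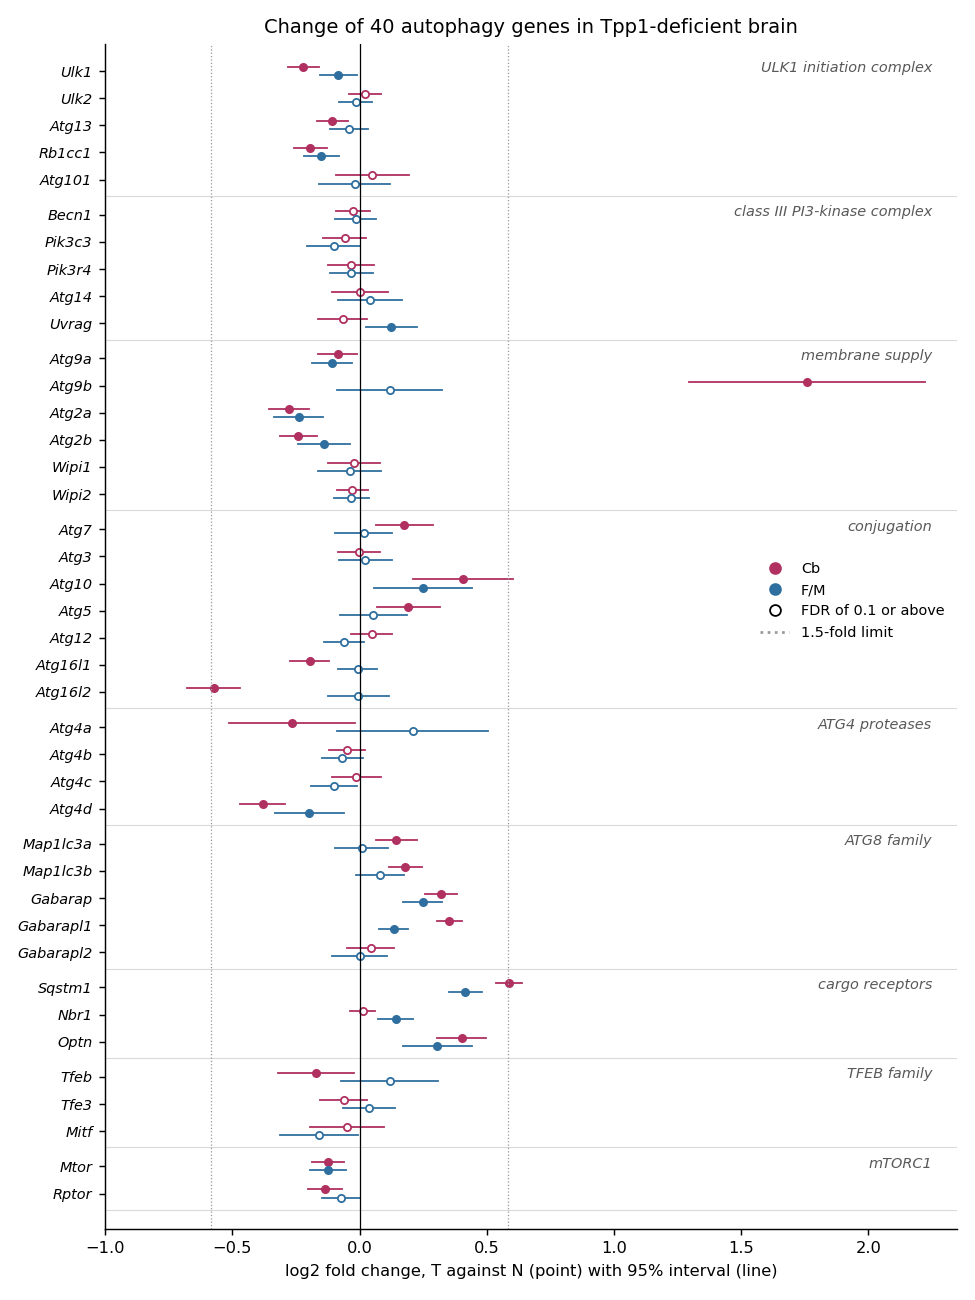
Log2 fold change of T against N for each of the 40 members in Cb and in F/M (horizontal axis), with its 95% interval; filled points passed at FDR below 0.1, and dotted lines mark 1.5-fold. Atg9b in Cb lies alone at 1.76, Sqstm1 in Cb sits on the 1.5-fold line, and Atg16l2 in Cb, at -0.57, is the lowest point.

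Cargo receptors tie ubiquitinated proteins and damaged organelles to ATG8 on the growing membrane, and 2 of the 3 genes of this list rose in Cb (29.8% of all genes) and 3 in F/M (12.8%). Sqstm1 (chromosome 11, 50199366 to 50210827, minus strand), which encodes the receptor SQSTM1 that is itself degraded by autophagy, stood at 269, 264 and 278 CPM in Cb-N against 404, 408 and 396 CPM in Cb-T. In F/M it stood at 395, 401 and 419 CPM in N and at 539, 514 and 532 CPM in T. All T libraries exceeded all N libraries of the same area, and the Cb-T level was about that of F/M-N. The rise was 50.3% in Cb (log2 fold change 0.59 ± 0.025 SE, FDR 1.3e-23) and 1.33-fold in F/M (0.42 ± 0.030, FDR 4.0e-09). In Cb Sqstm1 was so close to the 1.5-fold limit that its log2 fold change dropped below 0.585 when replicate 1 or 2 of Cb-N or of Cb-T was left out (0.57 to 0.58), with an FDR of at most 1.5e-15 in all 6 such fits. Its exons share 580 bases with the antisense gene Mrnip, whose mean level was 7.56 CPM in Cb-N, 8.69 in Cb-T, 9.42 in F/M-N and 11.6 in F/M-T.

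Optn, named here after its values were seen, encodes optineurin, a receptor for damaged mitochondria and aggregates. It stood at 28.7, 29.6 and 29.5 CPM in Cb-N against 38.6, 37.8 and 38.6 CPM in Cb-T, and at 23.1, 23.0 and 22.9 CPM in F/M-N against 28.3, 25 and 30.2 CPM in F/M-T. The groups did not overlap in either area, with more spread among the F/M-T libraries than in the other groups. It rose 1.32-fold in Cb (0.40 ± 0.048, FDR 1.8e-09) and 1.24-fold in F/M (0.31 ± 0.065, FDR 0.0021). Nbr1, a receptor related to SQSTM1, was at 300 ± 4.41 CPM in Cb-N against 299 ± 3.59 CPM in Cb-T (SD, n = 3), and at 229 ± 9.71 CPM in F/M-N against 247 ± 5.48 CPM in F/M-T. It rose in F/M (0.14 ± 0.033, FDR 0.0039), while in Cb its log2 fold change was 0.012 with an interval of -0.037 to 0.061.

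The ATG8 family coats the autophagosome membrane and recruits cargo receptors. In Cb 4 of the 5 genes rose (29.8% of all genes), and in F/M 2 did (12.8%), with none lower in either area. Gabarapl1 (chromosome 6, 129533160 to 129542346, plus strand), the member with the highest level per length, stood at 264, 258 and 271 CPM in Cb-N against 336, 331 and 335 CPM in Cb-T. In F/M it stood at 538, 531 and 555 CPM in N and at 590, 573 and 579 CPM in T. The groups were separate in both areas, with a wider gap in Cb. It rose 1.28-fold in Cb (0.35 ± 0.025, FDR 6.0e-16) and by 9.78% in F/M (0.13 ± 0.027, FDR 0.0014). The overlapping antisense transcript 1700101I11Rik, which shares 28.3% of its exon bases, was at a mean of 0.442 to 1.89 CPM.

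Gabarap (chromosome 11, 69991143 to 69994951, plus strand), the founding member of its subfamily, stood at 104, 106 and 111 CPM in Cb-N against 133, 130 and 133 CPM in Cb-T. In F/M it stood at 116, 109 and 116 CPM in N and at 134, 127 and 135 CPM in T. Both areas reached about the same level in T, and the N and T groups did not overlap. It rose 1.25-fold in Cb (0.32 ± 0.031, FDR 1.2e-11) and 1.19-fold in F/M (0.25 ± 0.037, FDR 7.5e-05). Map1lc3b, which encodes the LC3 protein most used as an autophagosome marker, stood at 120, 119 and 122 CPM in Cb-N against 128, 139 and 138 CPM in Cb-T, and at 119, 114 and 121 CPM in F/M-N against 132, 115 and 119 CPM in F/M-T. The groups were separate in Cb and overlapped in F/M. It rose 1.13-fold in Cb (0.18 ± 0.032, FDR 6.1e-06), and in F/M its log2 fold change of 0.080 ± 0.045 did not pass (FDR 0.22), although it did without replicate 2 of F/M-T (FDR 0.050). Map1lc3a, its close relative, rose in Cb (0.14 ± 0.040, FDR 0.0025), with 71.5 to 81.5 CPM in Cb-N against 79.4 to 86.0 CPM in Cb-T. Gabarapl2 did not pass in either area, at 0.043 in Cb and near 0 in F/M, and 12.2% of its 50-base windows also occur in other annotated genes.

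**Figure D2:**
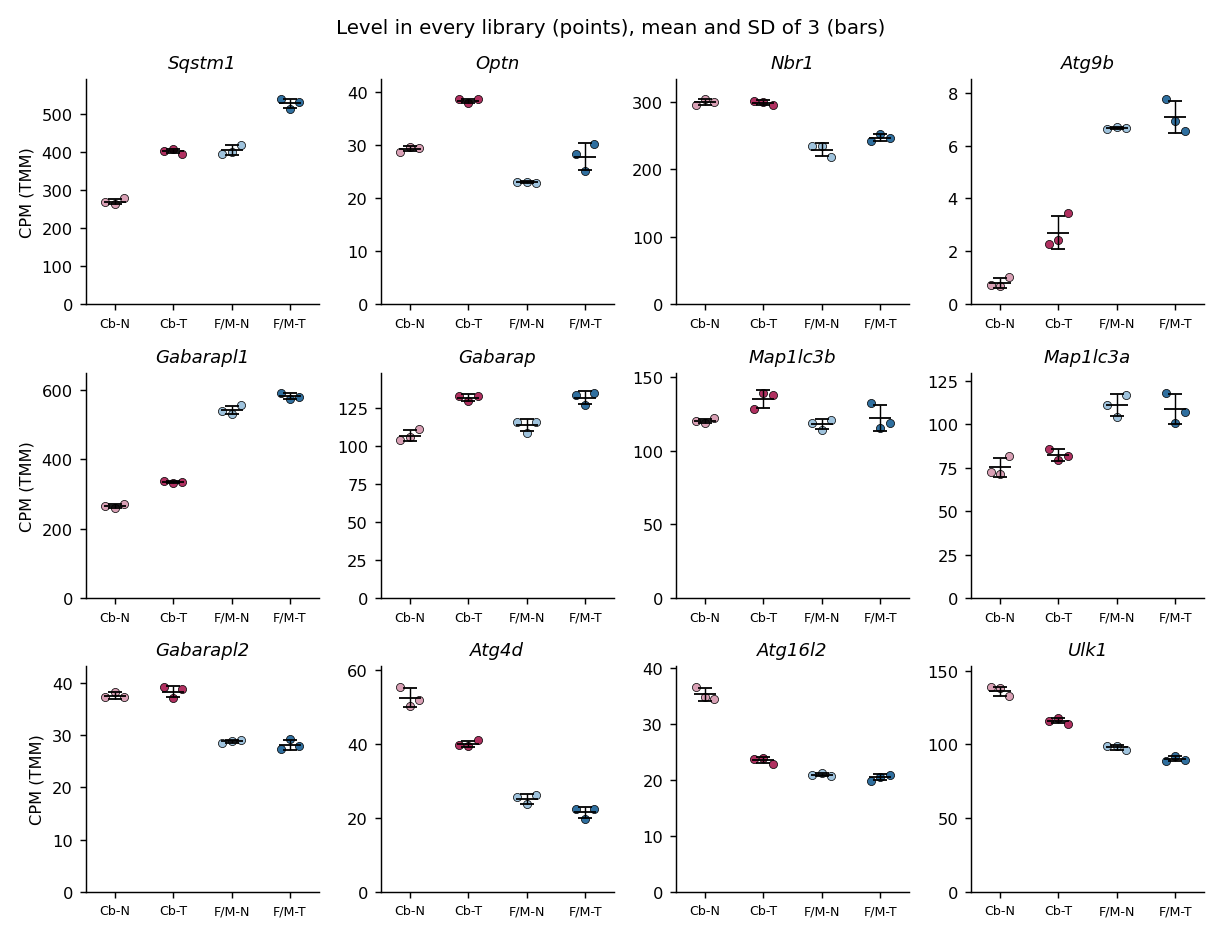
Level (CPM, TMM scaled; vertical axes start at 0) of 12 members in every library of the 4 groups, with the mean and SD of 3 libraries. Sqstm1, Optn, Gabarapl1 and Gabarap are higher in every T library than in any N library of the same area, and Ulk1 and Atg4d are lower.

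The ULK1 complex turns nutrient signals into the start of an autophagosome, and 3 of its 5 genes fell in Cb (27.9% of all genes) and 2 in F/M (14.4%). Ulk1 (chromosome 5, 110784488 to 110810097, minus strand), its kinase, stood at 139, 138 and 133 CPM in Cb-N against 116, 118 and 114 CPM in Cb-T. In F/M it stood at 98.8, 99.0 and 96.1 CPM in N and at 88.8, 92.3 and 89.7 CPM in T. The groups did not overlap in either area. It fell by 14.2% in Cb (log2 fold change -0.22 ± 0.030, FDR 3.3e-08) and less in F/M (-0.085 ± 0.035, FDR 0.093). The F/M call was lost without replicate 1 or 2 of F/M-N or replicate 1 or 3 of F/M-T (FDR 0.20 to 0.25), with library totals, with no filter and with DESeq2 (FDR 0.15 to 0.20). Rb1cc1, the scaffold FIP200, stood at 142, 146 and 134 CPM in Cb-N against 121, 126 and 119 CPM in Cb-T, and at 138, 139 and 135 CPM in F/M-N against 118, 121 and 124 CPM in F/M-T. Each T library lay below each N library of its area. It fell by 12.6% in Cb (-0.19 ± 0.032, FDR 1.5e-06), and in F/M it fell by 9.90% (-0.15 ± 0.033, FDR 0.0030). Atg13, the adaptor of the complex, fell in Cb (-0.11 ± 0.031, FDR 0.0035), and Ulk2 and Atg101 did not pass in either area.

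The class III PI3-kinase complex places the lipid PI3P on the nascent membrane. In Cb none of its 5 genes passed (57.6% of all genes), with log2 fold changes of -0.067 to -0.00046, and in F/M 1 did (27.2%). Becn1, its regulatory subunit Beclin, stood at 97.2, 96.5 and 93.6 CPM in Cb-N against 92.2, 92.2 and 95.1 CPM in Cb-T, and at 116, 115 and 123 CPM in F/M-N against 113, 111 and 118 CPM in F/M-T. The groups overlapped in both areas, and the 95% interval of the log2 fold change was -0.092 to 0.040 in Cb against -0.096 to 0.065 in F/M. Cntd1 lies antisense over 43.9% of its exon bases, at a mean below 1 CPM in every group. Uvrag, which directs the complex to endosomal and lysosomal traffic, stood at 38.2, 37.9 and 38.8 CPM in F/M-N against 42.0, 42.2 and 38.3 CPM in F/M-T. On this CPM scale, set over all libraries, a single F/M-T library lay within the N range. The rise (0.13 ± 0.049, FDR 0.076) was lost without replicate 1 or 2 of F/M-N or of F/M-T (FDR 0.17 to 0.24). It was also lost with no filter, with DESeq2 and in one fit of all libraries (FDR 0.12 to 0.22). Pik3c3, the catalytic subunit, Pik3r4 and Atg14 did not pass in either area.

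Among the 6 genes that supply lipid to the membrane, 1 rose and 3 fell in Cb, and 3 fell in F/M. The 66.7% that passed in Cb stand beside 57.6% of all genes, and the 50% in F/M beside 27.2%. Atg9b (chromosome 5, 24384181 to 24392143, minus strand) encodes a lipid scramblase, the paralog of the widely expressed ATG9A, and had the lowest level per length of any member in Cb-N. It stood at 0.710, 0.688 and 1.02 CPM in Cb-N against 2.28, 2.42 and 3.44 CPM in Cb-T, and at 6.64, 6.71 and 6.65 CPM in F/M-N against 7.75, 6.92 and 6.55 CPM in F/M-T. In Cb all T libraries exceeded all N libraries but stayed below those of F/M, and in F/M the groups overlapped. The rise in Cb was 3.39-fold (1.76 ± 0.23, 95% interval 1.29 to 2.22, FDR 1.6e-08), and the change in F/M did not pass (0.12 ± 0.099, FDR 0.44). Leaving out 1 library at a time moved the Cb value between 1.55 and 1.95. The exons of Atg9b overlap 294 exon bases of Nos3 on the other strand, and Nos3, the endothelial nitric oxide synthase, stood at 10.9 ± 0.964 CPM in Cb-N against 10.9 ± 0.328 CPM in Cb-T (FDR 0.90).

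Atg2a, one of the paired lipid-transfer proteins that bridge the endoplasmic reticulum and the growing membrane, stood at 75.7, 71.6 and 70.0 CPM in Cb-N against 59.7, 60.0 and 57.9 CPM in Cb-T. In F/M it stood at 61.7, 63.3 and 58.3 CPM in N and 49.8, 53.6 and 48.2 CPM in T. The N and T libraries were separate in both areas. It fell by 17.5% in Cb (-0.28 ± 0.038, FDR 4.9e-08), and in F/M it fell by 15.3% (-0.24 ± 0.046, FDR 8.4e-04), the largest decrease of any member in F/M. Its paralog Atg2b fell by 15.4% in Cb (-0.24 ± 0.036, FDR 2.4e-07), and in F/M it fell by 9.22% (-0.14 ± 0.048, FDR 0.046). Atg9a fell by 5.77% in Cb (FDR 0.056), in F/M it fell by 7.24% (FDR 0.043), and 31.8% of its exon bases belong also to Gm29253 on the same strand. Wipi1 and Wipi2, which read PI3P, did not pass in either area.

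In the conjugation system 3 of 7 genes rose and 2 fell in Cb (29.8% and 27.9% of all genes), and 1 rose in F/M (14.3%, near the 12.8% of all genes). ATG16L1 completes the complex with ATG5 and ATG12 that places ATG8 on the membrane, and Atg16l2 (chromosome 7, 101263034 to 101302251, minus strand) encodes its paralog. Atg16l2 stood at 36.7, 34.8 and 34.6 CPM in Cb-N against 23.7, 24.0 and 22.9 CPM in Cb-T. In F/M it stood at 21.0, 21.3 and 20.8 CPM in N and at 19.9, 20.6 and 21.0 CPM in T. The Cb groups were far apart and the F/M groups overlapped, and the Cb-T level came near that of F/M. It fell by 32.8% in Cb (-0.57 ± 0.052, FDR 9.2e-13), the largest decrease of any member, and in F/M its log2 fold change was -0.0047 with an interval of -0.13 to 0.12. The gene lies 4.44 Mb from Tpp1 on chromosome 7, and Uvrag lies 6.6 Mb from it.

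Atg10, the enzyme that transfers ATG12, had a low level of 7.28, 7.25 and 6.68 CPM in Cb-N against 8.44, 10.2 and 9.24 CPM in Cb-T, and of 10.6, 8.87 and 8.73 CPM in F/M-N against 10.1, 11.8 and 10.9 CPM in F/M-T. The groups were separate in Cb and overlapped in F/M. It rose 1.33-fold in Cb (0.41 ± 0.097, FDR 4.9e-04) and 1.19-fold in F/M (0.25 ± 0.093, FDR 0.064), and the F/M call was lost without replicate 2 or 3 of F/M-N or of F/M-T (FDR 0.14 to 0.21) and with DESeq2 (FDR 0.17). Atg7, the activating enzyme, and Atg5 rose in Cb (0.18 ± 0.056, FDR 0.0080, and 0.19 ± 0.061, FDR 0.0083), and Atg16l1 fell there (-0.20 ± 0.038, FDR 2.3e-05). Atg3, the enzyme that transfers ATG8, and Atg12 did not pass in either area.

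The ATG4 proteases trim newly made ATG8 and remove it from membranes, and 2 of the 4 genes fell in Cb (27.9% of all genes) and 1 in F/M (14.4%), with none higher. Atg4d (chromosome 9, 21265293 to 21277772, plus strand) stood at 55.4, 50.3 and 51.9 CPM in Cb-N against 39.6, 39.4 and 40.9 CPM in Cb-T. In F/M it stood at 25.7, 23.6 and 26.2 CPM in N and at 22.3, 19.7 and 22.4 CPM in T. The T libraries were below the N libraries in both areas. It fell by 23.2% in Cb (-0.38 ± 0.044, FDR 9.4e-10), and in F/M it fell by 12.8% (-0.20 ± 0.065, FDR 0.037). In F/M the call was lost without replicate 1 of F/M-N or replicate 2 of F/M-T (FDR 0.12 and 0.18). The antisense neighbor Kri1 shares 19.3% of its exon bases and did not pass in either area. Atg4a also fell in Cb (-0.27 ± 0.12, FDR 0.065), but 51.2% of its 50-base windows occur in other annotated genes, among them the pseudogene Atg4a-ps, so its counts are uncertain. Atg4b and Atg4c did not pass.

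The TFEB family and mTORC1 were the regulators in the set. Tfeb (chromosome 17, 47737030 to 47792419, plus strand), the main activator of lysosomal genes, stood at 14.6, 15.6 and 14.5 CPM in Cb-N against 13.5, 13.3 and 12.5 CPM in Cb-T. In F/M it stood at 7.38, 7.66 and 7.75 CPM in N and at 8.41, 8.24 and 7.54 CPM in T. The Cb groups were separate, with T lower, and the F/M groups overlapped. It fell by 11.2% in Cb (-0.17 ± 0.074, FDR 0.049), a call lost with library totals as the only scaling, with DESeq2 and without replicate 2 of Cb-N or replicate 3 of Cb-T (FDR 0.12 to 0.17), and in F/M the change was 0.12 ± 0.091 (FDR 0.39). Tfe3, a family member that shares its sites, stood at 44.5, 46.0 and 49.5 CPM in Cb-N against 43.9, 46.0 and 42.8 CPM in Cb-T. In F/M it stood at 42.4, 42.7 and 44.6 CPM in N against 40.7, 43.7 and 45.7 CPM in T. Its groups overlapped in both areas, and its log2 fold change had an interval of -0.15 to 0.029 in Cb against -0.067 to 0.14 in F/M. It passed as lower in Cb without replicate 1 of Cb-N (FDR 0.094). Mitf, best known from pigment cells, stood at 18.8, 19.7 and 16.6 CPM in Cb-N against 19.4, 17.2 and 16.1 CPM in Cb-T, groups that overlapped. In F/M it stood at 12.8, 12.8 and 12.6 CPM in N against 11, 11.4 and 11 CPM in T. It did not pass in Cb (-0.051 ± 0.072, FDR 0.59) or, although its F/M libraries did not overlap, in F/M (-0.16 ± 0.073, FDR 0.13), where it passed in one fit of all libraries (FDR 0.090). These are transcript levels, and the activity of the family depends on its location in the cell, which was not measured.

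Mtor, the kinase of mTORC1, stood at 149, 145 and 138 CPM in Cb-N against 128, 133 and 132 CPM in Cb-T, and at 163, 165 and 154 CPM in F/M-N against 142, 146 and 144 CPM in F/M-T. The T libraries lay below the N libraries in both areas. It fell by 8.26% in Cb (-0.12 ± 0.030, FDR 6.3e-04), and in F/M it fell by 8.22% (-0.12 ± 0.033, FDR 0.012). Rptor, its scaffold Raptor, stood at 96.4, 95.8 and 92.0 CPM in Cb-N against 83.6, 88.5 and 84.0 CPM in Cb-T, and at 90.0, 91.8 and 89.6 CPM in F/M-N against 85.2, 85.5 and 81.3 CPM in F/M-T. Its N and T libraries did not overlap in either area. It fell in Cb (log2 fold change -0.14 ± 0.034, FDR 8.1e-04), and its change of -0.074 ± 0.036 in F/M did not pass (FDR 0.16) except in one fit of all libraries (FDR 0.025).

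**Figure D3:**
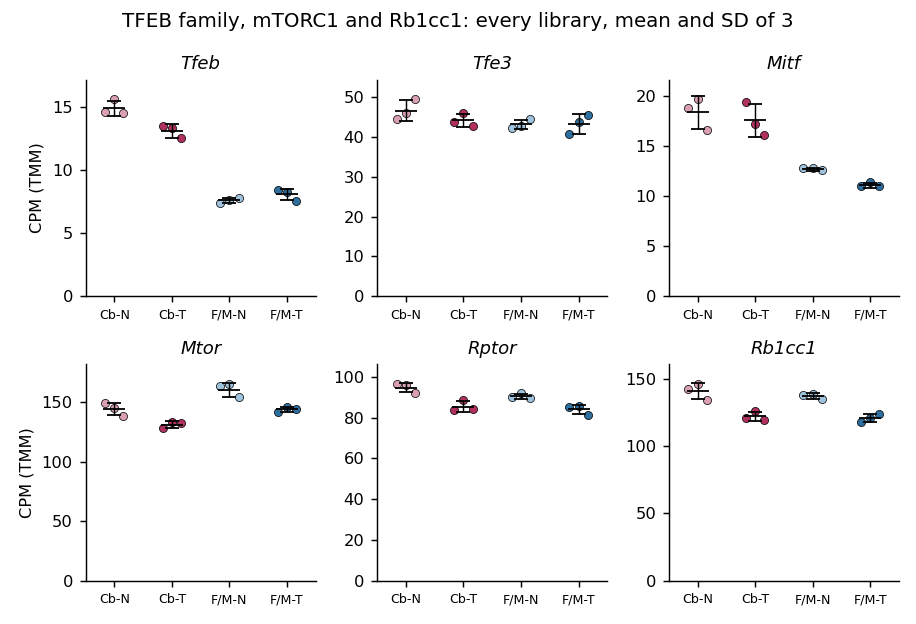
Level (CPM, TMM scaled; vertical axes start at 0) of the 3 TFEB family genes, Mtor, Rptor and Rb1cc1 in every library, with the mean and SD of 3. Tfeb is at 14.5 to 15.6 CPM in Cb-N against 7.38 to 8.41 CPM in F/M, and Mtor and Rb1cc1 are lower in T than in N in both areas.

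The change in Cb and the change in F/M were compared directly by the interaction over all 12 libraries, which shares its libraries with both comparisons. The methods read as if both areas were taken from the same 3 mice of each genotype, but no label says which libraries share a mouse. The interaction and the comparison of control areas treat all 12 libraries as independent. The interaction passed for 11 of 40 members (27.5%), 4 with a more positive change in Cb and 7 with a more negative one, and for 27.5% of all genes (17.4% and 10.1%). The 7 became 2 at FDR below 0.05 or with no filter on low counts, 3 without F/M-T replicate 2, and 4 without replicate 1 of F/M-N or replicate 1 or 2 of Cb-N. With at least a 1.5-fold difference, Atg9b alone passed, against 7.61% of all genes (6.41% more positive, 1.2% more negative), at a log2 difference of 1.66 ± 0.25 (FDR 6.3e-06). Atg16l2 joined it, for a count of 2, with a minimum mean count of 50 and without Cb-T replicate 1. Gabarapl1 (0.24 ± 0.036, FDR 8.0e-06) and Sqstm1 (0.19 ± 0.039, FDR 4.2e-04) rose more in Cb than in F/M. Atg16l2 fell more in Cb (-0.55 ± 0.074, FDR 1.3e-06), as did Ulk1 (-0.12 ± 0.045, FDR 0.062). Tfeb had a log2 difference of -0.27 ± 0.11 (FDR 0.085), with a fall in Cb beside a value above 0 in F/M, and Uvrag one of -0.17 ± 0.069 (FDR 0.073). With 1 library left out, the difference of Tfeb missed the limit in 7 of 12 fits (any F/M-N replicate, F/M-T replicate 1 or 2, Cb-N replicate 2 or Cb-T replicate 2, FDR 0.11 to 0.18). That of Ulk1 missed it in 4 (F/M-N replicate 3, F/M-T replicate 2, Cb-N replicate 1 or 2, FDR 0.11 to 0.15), and that of Uvrag in 5 (replicate 1 or 2 of F/M-N or F/M-T, Cb-N replicate 1, FDR 0.11 to 0.22). With no filter on low counts all 3 missed it (FDR 0.19 to 0.27), as did Tfeb with DESeq2 (FDR 0.15). For Gabarap, Optn, Rb1cc1, Atg2a, Atg2b and Mtor the interaction did not pass, although that of Gabarap did without F/M-N replicate 2 or Cb-N replicate 3 (FDR 0.075 and 0.089). Atg4d (-0.16 ± 0.078, FDR 0.14) did not pass either, but did with RLE size factors (FDR 0.085), with a minimum mean count of 50 (FDR 0.048) and in 5 of 12 fits with 1 library left out (F/M-N replicate 3, F/M-T replicate 2, Cb-N replicate 2, Cb-T replicate 1 or 3, FDR 0.044 to 0.098). Map1lc3b (0.12 ± 0.058, FDR 0.15) passed with no filter (FDR 0.045) and without F/M-N replicate 2 or F/M-T replicate 1 (FDR 0.076 and 0.011).

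The control level of the members was compared between areas, a contrast that shares the N libraries with the genotype comparisons, so that the values stand side by side and no relation between them is drawn. In Cb-N against F/M-N, 18 members were higher and 17 lower (79.6% of all genes passed, 39.8% in each direction), and 5 reached 1.5-fold, 3 higher and 2 lower, against 42.4% of all genes (19.2% higher, 23.2% lower). The 5 became 9 without F/M-N replicate 2 or Cb-N replicate 3. The libraries of both areas were separate for 33 members, against 76.9% of all genes. Atg4d was 2.09-fold higher in Cb-N (1.06 ± 0.053, FDR 1.5e-17), Tfeb 1.96-fold (0.97 ± 0.078, FDR 2.1e-12) and Atg16l2 1.68-fold (0.75 ± 0.051, FDR 3.5e-14). Atg9b was 8.24-fold lower in Cb-N (-3.04 ± 0.18, FDR 1.2e-15), Gabarapl1 2.05-fold lower (-1.03 ± 0.026, FDR 2.0e-25) and Sqstm1 33.2% lower (-0.58 ± 0.028, FDR 5.3e-18).

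Levels between genes were compared per kb of exon (union of GENCODE exons), as mean CPM per kb. Gabarapl1 was highest, at 131 CPM per kb in Cb-N and 269 in F/M-N, followed by Sqstm1 at 80.5 and 121 and Map1lc3a at 63.8 and 94.0. Gabarap was at 58.0 and 61.8 CPM per kb and Nbr1 at 43.7 and 33.3. Atg9b was lowest in Cb-N at 0.204 CPM per kb, against 1.69 in F/M-N. Tfeb, at 2.63 in Cb-N and 1.34 in F/M-N, was below Tfe3, at 5.04 and 4.66 CPM per kb. Summed over the 40 members the level was 3156 to 3175 CPM in Cb-N against 3263 to 3288 CPM in Cb-T, and 3492 to 3534 CPM in F/M-N against 3562 to 3637 CPM in F/M-T.

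**Figure D4:**
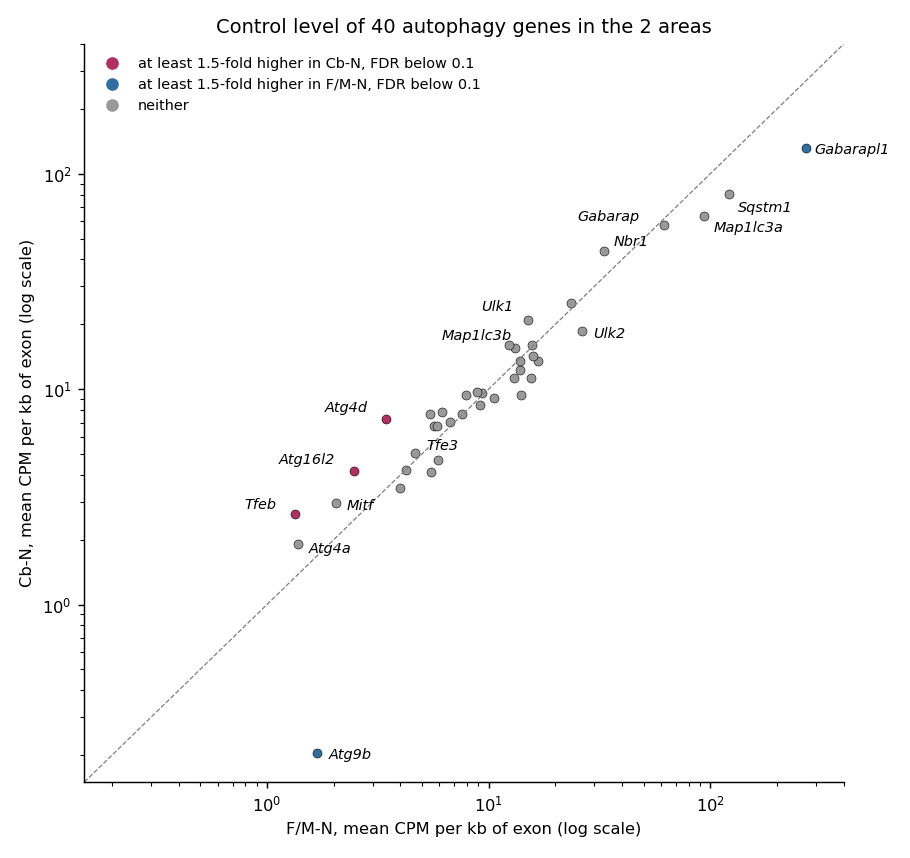
Mean control level of each member in F/M-N (horizontal) and Cb-N (vertical), in CPM per kb of exon, both axes logarithmic; the dashed line marks equal levels. Gabarapl1 lies highest at 269 and 131, and Atg9b lies far below the line at 1.69 and 0.204.

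Further genes of the pathway were taken from 5 lists of 99 genes. Of 30 lysosomal genes of the CLEAR network, 24 rose and 2 fell in Cb and 17 rose and none fell in F/M, with a median log2 fold change of 0.20 in Cb and 0.11 in F/M. Of all genes 29.8% rose and 27.9% fell in Cb, and 12.8% rose and 14.4% fell in F/M. The CLEAR genes held all the DEG of the 5 lists, 6 in Cb and 2 in F/M. Ctsd, the aspartic protease cathepsin D, stood at 155, 159 and 160 CPM in Cb-N against 416, 433 and 436 CPM in Cb-T, and at 181, 166 and 185 CPM in F/M-N against 316, 302 and 311 CPM in F/M-T. It rose by 1.45 ± 0.026 in Cb (FDR 2.4e-37) and 0.83 ± 0.037 in F/M (FDR 1.6e-12) on the log2 scale, more than any member but Atg9b in Cb. Hexa, Gusb, Naglu and Glb1, all enzymes of glycan breakdown, were DEG in Cb with log2 fold changes of 0.62 to 0.75. The microglial sums given above moved in the same direction, and their part was not tested.

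The other lists are read against the same shares of all genes, 57.6% passing in Cb and 27.2% in F/M. Of 14 genes of autophagosome fusion and late steps, 7 rose and 4 fell in Cb and 5 rose and 1 fell in F/M (78.6% and 42.9% passing). Of 15 other receptors, 4 rose and 2 fell in Cb and 1 rose and 2 fell in F/M (40% and 20%), and of 11 other early genes 1 rose and 2 fell in Cb and 1 fell in F/M (27.3% and 9.09%). Of 29 nutrient-sensing genes around mTORC1, 6 rose and 10 fell in Cb and 8 rose and 5 fell in F/M. Their 55.2% passing in Cb was near the share of all genes, and the 44.8% in F/M was above it, with no test of the difference. Among genes named after their values were seen, Wdfy3, a scaffold for aggregate clearance, fell in both areas (-0.47 ± 0.028 in Cb and -0.23 ± 0.044 in F/M). Rragc, a GTPase that brings mTORC1 to the lysosome, rose in both (0.21 ± 0.037 and 0.22 ± 0.037), as did Lamtor1, its lysosomal anchor (0.26 ± 0.050 and 0.19 ± 0.054). Deptor, an mTOR inhibitor, fell in both (-0.17 ± 0.054 in Cb and -0.45 ± 0.056 in F/M).

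**Figure D5:**
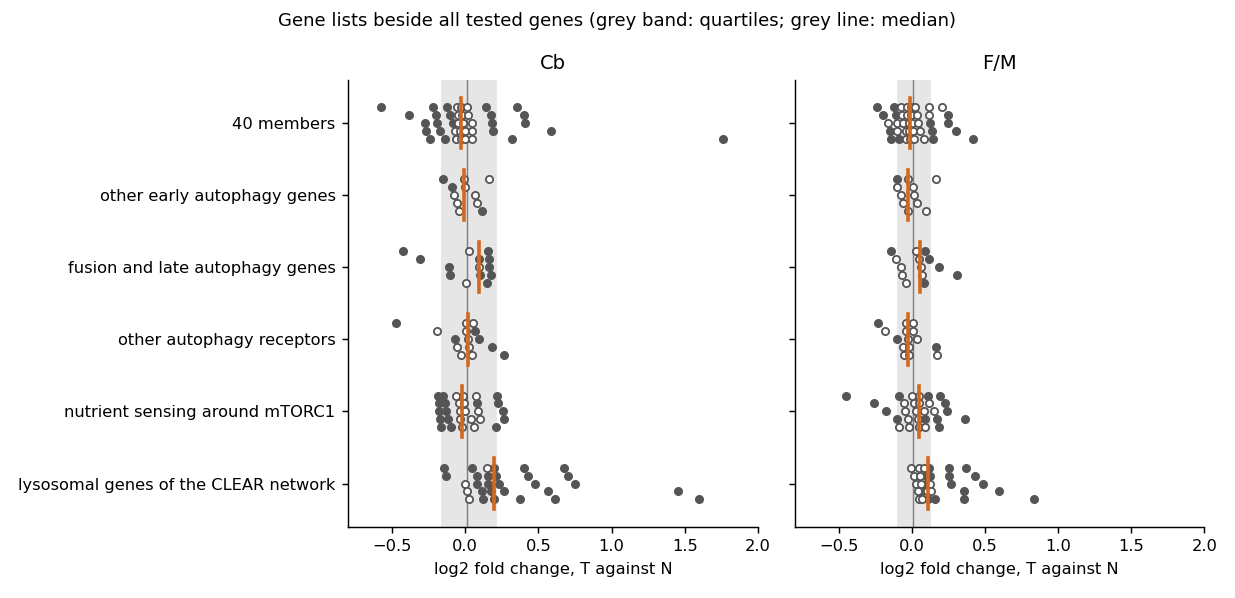
Log2 fold change of T against N (horizontal) for the 40 members and the 5 further lists in Cb (left) and F/M (right); each point is a gene, filled where FDR was below 0.1, and the orange bar is the list's median. The grey band spans the quartiles of all tested genes, and the CLEAR list has the highest median, 0.20 in Cb and 0.11 in F/M.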

How the data were processed

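The RNA of 12 tissue samples was measured by RNA-seq (poly(A) selection, stranded kit, single-end reads), and groups were taken from the sample titles. The deposited files carry other letters in their names (T for libraries titled N, M for those titled T); the titles were used, and Tpp1 was low in each library titled T. The authors aligned reads to GRCm38 with STAR (version 2.5.1b in the submitters' processing notes), counted them per gene with featureCounts (1.26.1) and deposited raw read counts, 1 table a library, without normalization. The annotation release, the strand setting of the count and the handling of multiply aligned reads are not given in the sources used here, so reads of overlapping antisense genes and of near-identical copies cannot be told apart.

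From these counts, each area was fitted in R 4.3.3 with edgeR 4.0.16 (TMM, filterByExpr with a minimum count of 10 and total of 15, glmQLFit and glmQLFTest, genotype as the only factor), which tested 16382 genes in Cb and 16665 in F/M. The interaction and Cb-N against F/M-N were contrasts in 1 fit of all 12 libraries over 17482 genes. CPM values, and whether groups overlapped, used the TMM factors of that fit, while tests within an area used factors of that area alone. In F/M the median log2 fold change of all genes was 0.0078 with the factors of F/M and -0.025 in one fit of all 12 libraries. Overlap of groups that lie close together can therefore differ between the 2 scales. P-values were adjusted by Benjamini-Hochberg over all tested genes. SE is the log2 fold change divided by the square root of F, and intervals (95%) use the t quantile. DESeq2 1.42.0 and limma 3.58.1 (voom) were alternatives, beside RLE factors, library totals, other count filters, FDR below 0.05, the replicate block and leaving out each library. The tests were checked on simulated counts with calls scored at the 1.5-fold limit, a check that does not bear on smaller changes. Pairs of libraries within a group differed beyond counting noise (chi-square per degree of freedom 1.27 to 3.37), so none was a repeated sequencing of another library. This cannot tell separate mice from separate preparations of 1 mouse. The common coefficient of variation of edgeR, the spread between libraries beyond counting noise, was 0.022 in Cb and 0.030 in F/M.

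The members and all lists were chosen with earlier results of these data known. Genes were named by rule where they were DEG (members or pathway genes), had the largest passing change of their role in either area, differed between areas by at least 1.5-fold in the interaction, were among the 3 furthest apart in each direction between control areas, or were Tfeb, Tfe3, Mitf, Map1lc3b, Sqstm1, Becn1 or Tpp1. Other named genes were chosen after their values were seen. Exon positions came from GENCODE M21, by symbol. The values of 1 pathway gene that was a DEG are not reported here.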

Additional observations from a re-analysis of the deposited data

Results flagged for a closer look

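For 11 members the change in Cb differed from that in F/M by the interaction test (edgeR, FDR below 0.1), against 27.5% of all tested genes. On the log2 scale, as the change in Cb minus that in F/M, the difference was 1.66 for Atg9b, 0.24 for Gabarapl1, 0.19 for Sqstm1 and 0.18 for Atg7, all with the more positive change in Cb. It was -0.55 for Atg16l2, -0.46 for Atg4a, -0.27 for Tfeb, -0.17 for Uvrag, -0.17 for Atg16l1, -0.12 for Ulk1 and -0.11 for Nbr1, all with the more negative change in Cb. The Hox gene sum was 13.7 to 14.6 CPM in Cb-T, against 0.325 to 0.551 CPM in Cb-N and at most 0.0847 CPM in F/M. For the other marker lists the median log2 fold changes in Cb and F/M follow, and differences between them were not tested. Microglial markers were at 1.89 and 0.89, astrocyte markers at 0.27 and 0.18 and endothelial markers at 0.20 and 0.11. Oligodendrocyte markers were at 0.33 and 0.0024 (11 of 12 higher in Cb, 1 higher and 3 lower in F/M). Neuron markers were at -0.020 and -0.043, and cerebellar neuron markers at -0.25 (10 of 12 lower) and 0.0044 (1 of 11 lower, 2 higher). Forebrain markers were at 0.95 and -0.13, olfactory bulb markers at -0.18 and -2.44, and serotonin neuron markers at 2.53 and 0.15. In Cb only 8 of 12 forebrain, 3 of 7 olfactory and 5 of 7 serotonin markers were tested. The part of these in the differences was not tested.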

How the results depend on the processing

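Counting noise limits Atg9b and Atg4a most, and with 3 libraries a group small changes cannot be told from 0. No alternative scaling moved the median of all genes by over 0.1, but smaller shifts are not small beside the members' medians (-0.027 in Cb, -0.012 in F/M). With library totals the median of all genes in Cb went from 0.012 to 0.054. Outside the fits with 1 library left out, 478 values of single genes kept their direction and side of the threshold, 8 gained a call, 19 lost one and 10 changed sign, and of the counts 94 stayed within 1.5 times and 8 did not. In Cb the number of DEG went from 2 to 1 with RLE size factors and with DESeq2, where Sqstm1 dropped to 0.58, and with a minimum mean count of 50, where Atg9b was not tested. In F/M the members that fell went from 7 to 14 in one fit of all 12 libraries. The median of all genes in F/M was -0.025 in that fit, against 0.0078 in the fit of F/M alone. In the interaction, the more negative members went from 7 to 2 at FDR below 0.05 and with no filter on low counts, and those past 1.5-fold from 1 to 2 (Atg9b and Atg16l2) with the minimum mean count of 50. The deviations of same-numbered libraries from their group means had correlations of -0.0157 to 0.0616, which gave no sign of pairing by number. Such deviations hold counting noise, so the check cannot exclude that libraries share a mouse. With the replicate block the members with a more positive change in Cb went from 4 to 7. Map1lc3b passed in F/M with it (FDR 0.069), and Atg4d and Map1lc3b passed in the interaction (FDR 0.093 and 0.079). Causes were not tested.

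Signs turned only where the value was near 0. With library totals, Becn1 was 0.017 in Cb and 0.0045 in F/M, and Atg16l2 0.015 in F/M. In the interaction, Becn1 was -0.015 with RLE, -0.036 with the mean count limit and -0.016 with DESeq2, Mtor was -0.0061, -0.026 and -0.0060 there, and Atg2a was 0.00062 with no filter.

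Leaving out 1 library at a time gave 1 to 3 DEG in Cb (1 without Cb-N replicate 1 or Cb-T replicate 1), 3 to 8 falling members in F/M (3 without F/M-N replicate 1, 4 without F/M-T replicate 3), 3 to 8 more negative members in the interaction (3 without F/M-T replicate 2, 4 without replicate 1 of F/M-N or replicate 1 or 2 of Cb-N), 1 to 2 past 1.5-fold there (2 without Cb-T replicate 1) and 5 to 9 past 1.5-fold between control areas (9 without F/M-N replicate 2 or Cb-N replicate 3). Mitf in Cb ran from -0.13 to 0.0062, and in F/M Atg16l2 from -0.023 to 0.015, Becn1 from -0.043 to 0.019 and Tfe3 from -0.0041 to 0.078. In the interaction Atg2a ran from -0.076 to 0.028, Becn1 from -0.058 to 0.038 and Mtor from -0.040 to 0.050.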
